A study of Mus musculus with 6 samples.

Results

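The genes described here encode the subunits of the hypoxia-inducible factors (HIFs) and the enzymes that set their activity by oxygen. They were chosen by symbol: the alpha subunits Hif1a, Epas1 and Hif3a, the beta subunits Arnt and Arnt2, the prolyl hydroxylases Egln1, Egln2 and Egln3, the ubiquitin ligase subunit Vhl, and the asparaginyl hydroxylase Hif1an. All 10 were among the 24015 symbols of the deposited count table, and 9 of them were among the 13284 genes with enough reads to test. The samples were primary cultures of cancer-associated fibroblasts (CAFs), which populate the stroma of tumours. They were grown from mammary tumours of BalbC mice that carry the NeuT transgene, an activated rat Her2/neu oncogene. The cells were given nanoparticles carrying anti-Stat3 siRNA (3 samples) or control siRNA (3 samples), at 1 ug/mL for 72 hours in both groups. The study looked for genes under the control of STAT3 in these cells, a transcription factor downstream of interleukin 6 and related cytokines. No oxygen level or hypoxia treatment is named in the labels. Whether samples came from separate animals is not given there either, so the spread behind each p-value may not be that between animals.

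HIF is a pair of proteins, an alpha and a beta subunit, that binds DNA together. In the presence of oxygen the prolyl hydroxylases modify the alpha subunit, the Vhl protein then binds it, and a ubiquitin ligase marks it for destruction. When oxygen is scarce the alpha subunit escapes this, and genes of glycolysis, angiogenesis and iron handling are switched on, among them Egln3 and Egln1, which gives the pathway a feedback loop. HIF activity is therefore set largely at the level of protein, which counts of poly(A) RNA do not measure. In tumour stroma the pathway is known for its part in the glycolytic state of fibroblasts.

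Total counts ranged from 12998168 to 18683852 per sample. Levels are given as CPM, which corrects the counts for library size with TMM factors. Changes are given as log2 ratios, anti-Stat3 over control, so that a negative value means lower in anti-Stat3 samples. Samples of the same number in the 2 groups resembled each other and are called pairs. A fit is called blocked where it has the pair as a term and unblocked where it has the siRNA alone. In a single simulated data set, the share of false calls in each blocked fit tried was above the threshold set for adjusted p. All calls by blocked fits given below carry that limit. Stat3, the targeted gene, had 34.7, 81.8 and 78.8 CPM in anti-Stat3 samples 1 to 3, against 220.2, 358 and 405 CPM in control samples 1 to 3, so the libraries went with their labels. Pair 1 stood apart in its cell makeup: the summed level of 20 macrophage markers was 47.2, 1869 and 3032 CPM in the anti-Stat3 samples, against 51.0, 1885 and 2632 CPM in the controls. The summed level of 21 epithelial or tumour markers was 254, 736 and 102 CPM in the anti-Stat3 samples, against 264, 764 and 107 CPM in the controls. All 15 fibroblast markers were detected in every sample, with a summed level of 46687, 71141 and 87137 CPM in the anti-Stat3 samples, against 41328, 99818 and 116287 CPM in the controls. In these bulk samples, fewer cells of a type and less RNA per cell cannot be told apart.

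Hif1a, the alpha subunit present in most cell types, was the member with the largest mean change over the pairs. Its level was 402, 492 and 464 CPM in anti-Stat3 samples 1 to 3, against 498, 1038 and 1146 CPM in control samples 1 to 3. Each anti-Stat3 sample was lower than each control sample, but control sample 1 lay just above the highest anti-Stat3 sample, and the wide gap was in pairs 2 and 3. The group means were 453 ± 45.8 CPM with anti-Stat3 siRNA and 894 ± 347 CPM with control siRNA (SD, n = 3 each). The changes in pairs 1 to 3 were -0.31, -1.08 and -1.31, with a mean of -0.90 ± 0.52 (SD). The anti-Stat3 samples were thus alike in level, while the controls spread widely. The quasi-likelihood test of unblocked edgeR gave -0.98 ± 0.33 (SE, adjusted p = 1.00 and unadjusted p = 0.0239), so Hif1a did not pass there. With the pair as a block, Hif1a fell by 0.90 ± 0.20 (SE) on the log2 scale in DESeq2 (adjusted p = 0.00124), and did not pass in edgeR (adjusted p = 0.170) or limma-voom (adjusted p = 0.137). The DESeq2 call was lost without pair 2 (-0.81, adjusted p = 0.503) and without pair 3 (-0.69, adjusted p = 0.567). Without pair 1, Hif1a fell by 1.19 on the log2 scale in both blocked edgeR (adjusted p = 4.0e-04) and blocked DESeq2 (adjusted p = 1.4e-08). Of 13529 genes, those fits called 703 and 432. The limit on false calls in blocked fits applies to these calls of Hif1a and to the DESeq2 call with all pairs. The summed fibroblast markers, in which collagens and fibronectin weigh most, moved by 0.18, -0.49 and -0.42 in pairs 1 to 3. The median change of the 15 fibroblast markers was 0.10, -0.32 and -0.03, with 3 of them higher and 2 lower in all 3 pairs. The summed macrophage markers, in which Lyz2 weighs most in pairs 2 and 3, moved by -0.11, -0.01 and 0.20. The median change of the 19 tested was 0.09, 0.02 and 0.24, with 5 of them higher and 1 lower in all 3 pairs. The part of these cell types in the change of Hif1a was not tested. The annotation places an antisense gene, Gm15283, over 330 of the 5896 exon bases of Hif1a. Since no strand setting is stated, reads of both genes cannot be told apart there. A protein-coding gene on the same strand, Gm49321, overlaps 148 exon bases of Hif1a.

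Both the factor silenced in these cells and HIF itself bind short DNA motifs near genes. The promoter windows of 3 of the 7 members that were lower in all 3 pairs are therefore shown here. Each runs from 250 bases before to 50 bases after the gene's start, 5′ to 3′ on the gene's strand, from RefSeq on build GRCm38.p6, a later build than the mm9 the submitters name. Capitals mark the core of the hypoxia response element, ACGTG or GCGTG, on either strand. Hif1a lies on chromosome 12 (chr12:73907617-73907916, plus strand), Egln1 on chromosome 8 (chr8:124949205-124949504, minus strand) and Egln3 on chromosome 12 (chr12:54203825-54204124, minus strand).
Hif1a: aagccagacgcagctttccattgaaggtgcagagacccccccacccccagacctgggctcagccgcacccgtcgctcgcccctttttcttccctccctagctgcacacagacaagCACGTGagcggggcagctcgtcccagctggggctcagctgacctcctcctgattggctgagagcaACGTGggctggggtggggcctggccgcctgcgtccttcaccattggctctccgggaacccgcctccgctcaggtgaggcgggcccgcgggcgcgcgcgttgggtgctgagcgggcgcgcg
Egln1: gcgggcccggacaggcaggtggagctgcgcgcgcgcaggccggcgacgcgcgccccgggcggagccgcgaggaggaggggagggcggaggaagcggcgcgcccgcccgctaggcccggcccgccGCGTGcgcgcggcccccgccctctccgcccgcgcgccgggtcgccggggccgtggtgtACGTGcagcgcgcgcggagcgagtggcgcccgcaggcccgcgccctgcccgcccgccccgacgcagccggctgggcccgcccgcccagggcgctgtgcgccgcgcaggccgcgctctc
Egln3: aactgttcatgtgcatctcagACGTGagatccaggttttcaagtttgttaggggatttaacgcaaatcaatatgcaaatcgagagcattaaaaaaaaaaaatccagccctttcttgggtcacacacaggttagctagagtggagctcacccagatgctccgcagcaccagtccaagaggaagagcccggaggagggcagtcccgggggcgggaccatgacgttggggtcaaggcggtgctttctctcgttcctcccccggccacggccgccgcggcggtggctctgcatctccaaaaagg
In the Hif1a window 2 of the 3 core matches overlap on opposite strands as CACGTG, and the third begins at position -70 from the start. Windows were found for 9 members, with none for Epas1, and the core occurred in those of 6, Hif1a, Hif3a, Arnt, Egln1, Egln2 and Egln3. It was absent from the windows of Arnt2, Vhl and Hif1an, which were also lower in all 3 pairs. Egln2, whose pairs went both ways, held the most matches, with 6 in the first of its windows. Of all 32851 promoter windows, 43.8% hold it, so its presence is common. The palindrome TTCNNNGAA, bound by STAT proteins, was in the windows of 0 of the 9 members and in 8.30% of all windows. With 4 bases between TTC and GAA in place of 3, the motif was in 2 of the 9 (Hif1a, as TTCCATTGAA from position -235, not in capitals above, and Hif1an) and in 6.95% of all windows, and with 2 bases (TTCNNGAA) it was in 1 (Hif1an) and in 8.52%. A match is a description of letters and not of binding, and the windows leave out more distant sequence.

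**Figure D1:**
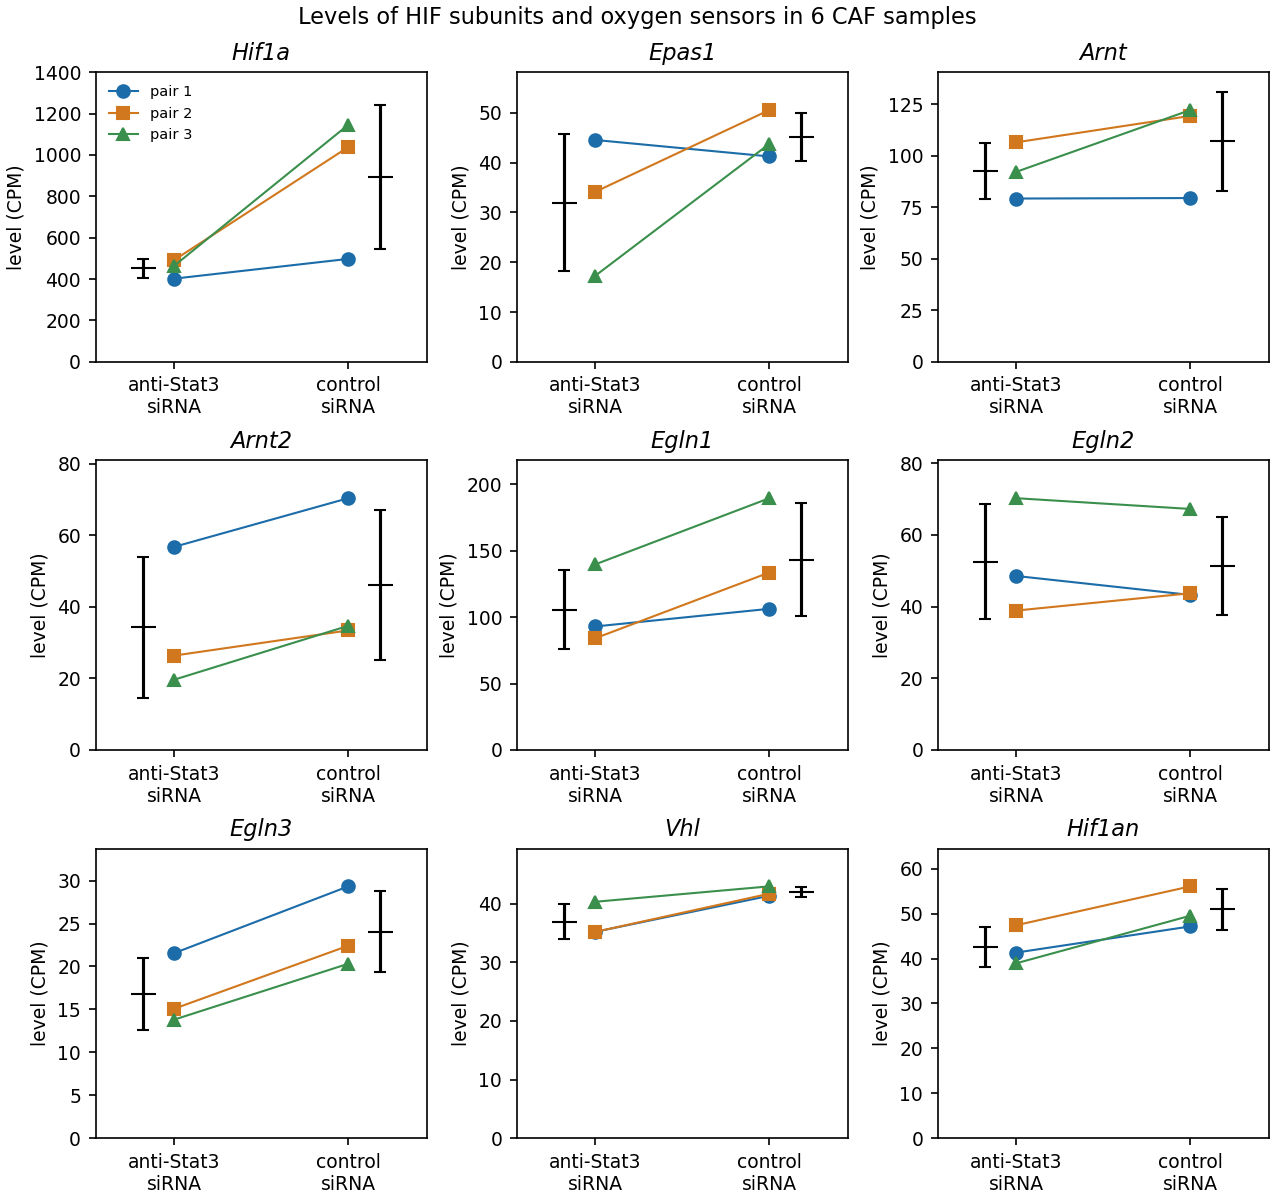
Level of each of the 9 tested genes (CPM, linear axes from 0) in anti-Stat3 siRNA samples (left) and control siRNA samples (right); each line joins the samples of a pair, and black bars are group means with SD (n = 3). Hif1a lies between 402 and 492 CPM in the anti-Stat3 samples and at 498, 1038 and 1146 CPM in the controls, while the lines of Egln2 run both ways.

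The other alpha subunits were expressed at far lower levels. Epas1, which encodes the alpha subunit HIF-2 alpha and is best known from endothelial cells, had 44.5, 34.1 and 17.3 CPM in anti-Stat3 samples 1 to 3, against 41.2, 50.5 and 43.7 CPM in control samples 1 to 3. The controls were close to each other, the anti-Stat3 samples were not, and anti-Stat3 sample 1 lay above control samples 1 and 3. Its pair changes were 0.11, -0.57 and -1.34, a mean of -0.60 ± 0.72 (SD, n = 3 pairs), so the spread between pairs exceeded the mean. The log2 change was -0.50 ± 0.34 (SE) in unblocked edgeR (adjusted p = 1.00) and -0.59 ± 0.26 in blocked DESeq2 (adjusted p = 0.367), and Epas1 did not pass in either. Without pair 1 Epas1 fell by 0.94 (log2) in blocked edgeR (adjusted p = 0.0088) and in blocked DESeq2 (adjusted p = 0.0138). Without anti-Stat3 sample 3, the lowest of the samples, the change in unblocked edgeR was -0.20 (adjusted p = 1.00). Of 15 endothelial markers, the defining genes Pecam1 and Cdh5 reached at most 0.61 and 1.06 CPM in any sample and Sox17 was at 0 in all. Others were detected, among them Kdr, up to 30.3 CPM, Vwf, up to 10.5 CPM, Esam, up to 4.53 CPM, and Tek, up to 4.22 CPM. Of the 7 tested, Kdr, Vwf, Tek and Eng were higher in all 3 pairs and did not pass in blocked DESeq2 (adjusted p = 0.825, 0.886, 0.805 and 0.464). Esam (-0.46, -0.33 and -0.04) and Cdh5 (-0.90, -0.24 and -0.96) were lower in all 3 pairs. The list's summed level, most of it from Eng, a receptor that fibroblasts also make, was 165, 176 and 258 CPM in the anti-Stat3 samples, against 148, 136 and 204 CPM in the controls. It was higher in the anti-Stat3 sample of each pair, the reverse of Epas1 in pairs 2 and 3. Its part in the values of Epas1 was not tested.

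Hif3a, an alpha subunit whose splice forms can restrain the other HIFs, had counts of 0, 2 and 1 in the anti-Stat3 samples, against 0, 4 and 3 in the controls. It was too low to test. At this depth a sample with a count of 0 may still hold 0.188 CPM (anti-Stat3 sample 1) or 0.203 CPM (control sample 1), taken as 3 counts of the scaled total and covering counting error only.

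Arnt, the beta subunit shared by the HIFs and the dioxin receptor, had 79.2, 106 and 92.2 CPM in anti-Stat3 samples 1 to 3, against 79.5, 119 and 122 CPM in control samples 1 to 3. The groups overlapped, and the pair changes of -0.0044, -0.16 and -0.41 left pair 1 without a visible difference. Arnt2, a related beta subunit known mainly from the nervous system, had 56.7, 26.4 and 19.6 CPM in the anti-Stat3 samples, against 70.3, 33.4 and 34.7 CPM in the controls. It was higher in pair 1 than in the other pairs under either siRNA, so its level differed more between pairs than between siRNAs. Its pair changes were -0.31, -0.34 and -0.82 (mean -0.49 ± 0.29, SD). Neither passed: in blocked DESeq2 the log2 change was -0.19 ± 0.15 for Arnt (adjusted p = 0.978) and -0.48 ± 0.18 for Arnt2 (SE, adjusted p = 0.183). Without control sample 1 the change of Arnt2 in unblocked edgeR was 0.0041 (adjusted p = 1.00). Gm30873, annotated antisense to Arnt2, overlaps 214 of its 7689 exon bases.

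Among the prolyl hydroxylases, Egln3 and Egln1 were lower in every pair, and Egln2 went both ways. Egln3, the member of the family most strongly induced by HIF in many cell types, had 21.5, 15.1 and 13.8 CPM in anti-Stat3 samples 1 to 3, against 29.3, 22.4 and 20.3 CPM in control samples 1 to 3. Every pair was lower by a similar amount, with changes of -0.44, -0.57 and -0.55 and a mean of -0.52 ± 0.07 (SD), the narrowest spread of the 9 genes. The groups overlapped nonetheless, since anti-Stat3 sample 1 lay above control sample 3. Egln1, the main oxygen sensor of most cells, had 92.9, 84.0 and 140 CPM in the anti-Stat3 samples, against 106, 134 and 189 CPM in the controls. It was highest in pair 3 under either siRNA, and its pair changes were -0.19, -0.67 and -0.44 (mean -0.43 ± 0.24, SD). Egln2, which is not known as a HIF target in most cells, had 48.5, 38.9 and 70.2 CPM in the anti-Stat3 samples, against 43.2, 43.7 and 67.2 CPM in the controls. Its pairs went both ways, by 0.17, -0.17 and 0.06, with a mean of 0.02 ± 0.17 (SD). In blocked DESeq2 the log2 changes were -0.52 ± 0.18 for Egln3 (adjusted p = 0.133), -0.43 ± 0.15 for Egln1 (adjusted p = 0.148) and 0.02 ± 0.15 for Egln2 (SE, adjusted p = 1.00), and none passed. In blocked edgeR the adjusted p was 0.170 for Egln3, 0.232 for Egln1 and 0.965 for Egln2. The difference in change between these genes was not tested.

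Vhl, the subunit that recognises hydroxylated alpha subunits, had 35.2, 35.2 and 40.3 CPM in anti-Stat3 samples 1 to 3, against 41.4, 41.7 and 43.0 CPM in control samples 1 to 3. Its groups did not overlap, by a small margin, and its level varied least of the 9 genes over the 6 samples. Hif1an, the asparaginyl hydroxylase that blocks the binding of coactivators to the alpha subunit, had 41.3, 47.4 and 38.9 CPM in the anti-Stat3 samples, against 47.2, 56.1 and 49.6 CPM in the controls. The groups overlapped narrowly, with anti-Stat3 sample 2 just above control sample 1. The pair changes averaged -0.19 ± 0.09 for Vhl and -0.26 ± 0.08 for Hif1an (SD, n = 3 pairs each). Neither passed in blocked DESeq2 (adjusted p = 0.994 for Vhl and 0.771 for Hif1an), blocked edgeR (0.560 and 0.416) or unblocked edgeR (1.00 for both).

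Over the 9 tested genes, unblocked edgeR called 0, where it called 0% of all tested genes and had 235 at an unadjusted p under 0.05; only Hif1a was among those. With the pair as a block edgeR also called 0 of the 9, beside 0.0376% called lower and 0.0226% called higher among all genes, and had 6 of the 9 at an unadjusted p under 0.05, as were 1439 of all tested genes (10.8%). Blocked limma-voom called 0 too, with the same 0.0376% lower and 0.0226% higher, and unblocked DESeq2 called 0, beside 0.00753% lower and 0.12% higher. Blocked DESeq2 called 1 member lower, Hif1a, and 0 higher, where it called 0.783% of all genes lower and 0.873% higher. Members lower in all 3 pairs numbered 7 of 9, against 16.4% of all tested genes, and 0 were higher in all 3 pairs, against 17.4%. Epas1 and Egln2 were the exceptions. The members too were chosen with earlier results of these data known. Groups did not overlap, with anti-Stat3 lower, for 2 members, Hif1a and Vhl, against 2.23% of all genes, and with anti-Stat3 higher for 0, against 2.45%. The median log2 change of the 9 was -0.43 in unblocked edgeR, against -0.0028 for all tested genes, and their pair medians were -0.19, -0.34 and -0.44.

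**Figure D2:**
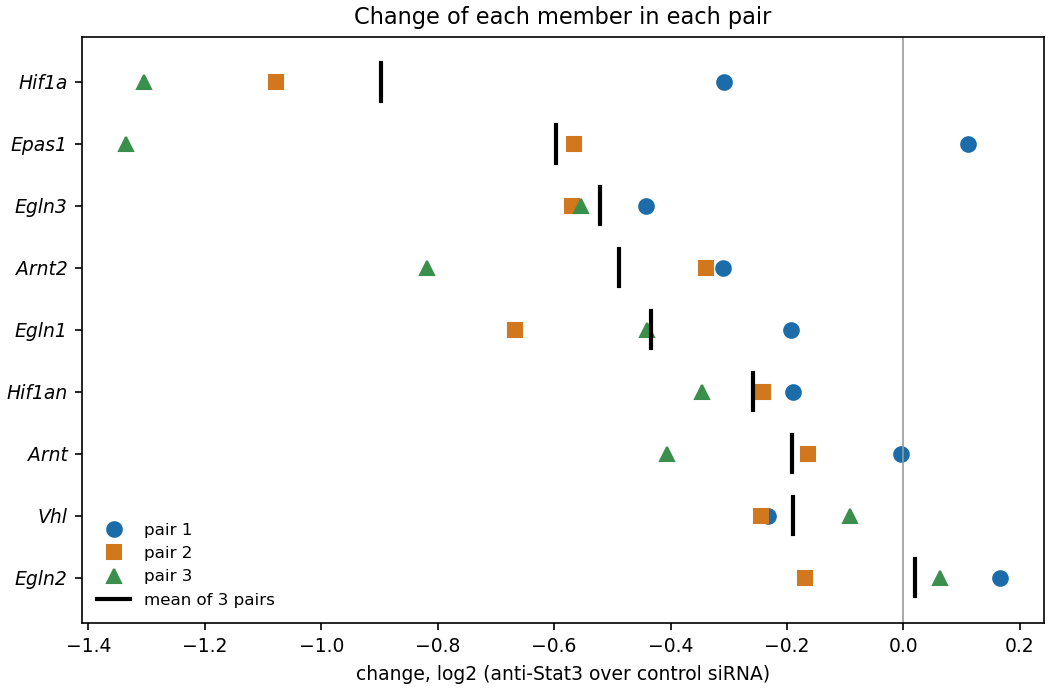
Change of each of the 9 tested genes in each pair (log2 of anti-Stat3 over control siRNA, horizontal axis), with a black bar at the mean of the 3 pairs. Hif1a (-0.31, -1.08 and -1.31) and Epas1 (0.11, -0.57 and -1.34) differ most between pairs, and Egln3 (-0.44, -0.57 and -0.55) is similar in all.

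Levels of different genes were compared per kilobase of annotated exon (CPM per kb). Hif1a was the most abundant member, at 76.7 ± 7.77 CPM per kb with anti-Stat3 siRNA and 152 ± 58.9 CPM per kb with control siRNA (SD, n = 3 each). Egln1 followed, at 29.4 ± 8.31 CPM per kb with anti-Stat3 siRNA and 39.8 ± 11.8 with control siRNA, and then Egln2, at 18.8 ± 5.73 and 18.4 ± 4.90 CPM per kb in anti-Stat3 and control samples. Vhl had 12.3 ± 0.99 and Arnt 11.6 ± 1.70 CPM per kb with anti-Stat3 siRNA, against 14.0 ± 0.28 and 13.4 ± 2.98 with control siRNA, and these neighbours overlapped in both groups. Egln3, Epas1, Hif1an and Arnt2 lay between 4.45 and 6.44 CPM per kb on average with anti-Stat3 siRNA and between 6.002 and 9.02 with control siRNA, and each overlapped its neighbour in that order. Hif3a was last in both groups. Among the top 3 the ranges did not overlap in the controls, whereas Egln1 and Egln2 overlapped in the anti-Stat3 samples.

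A ratio of 2 genes within a sample does not depend on scaling. The ratio of Hif1a to Epas1 per kilobase was 8.56, 13.7 and 25.5 in anti-Stat3 samples 1 to 3, against 11.4, 19.5 and 24.8 in control samples 1 to 3. Hif1a thus exceeded Epas1 in every sample, and the ratio was lowest in pair 1 and highest in pair 3 under either siRNA; the log2 change of the ratio averaged -0.30 ± 0.29 (SD, n = 3 pairs). The ratio of Hif1a to its partner Arnt was 6.89, 6.27 and 6.83 in the anti-Stat3 samples, against 8.51, 11.8 and 12.7 in the controls. That ratio was lower in every anti-Stat3 sample than in every control sample, and its log2 change was -0.30, -0.91 and -0.90 in pairs 1 to 3. The ratio of Egln1 to Egln3 was 3.20, 4.13 and 7.49 in the anti-Stat3 samples, against 2.68, 4.41 and 6.91 in the controls, so it differed more between pairs than between siRNAs. No p is given for these ratios, since 3 pairs cannot give an exact two-sided p under 0.25.

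**Figure D3:**
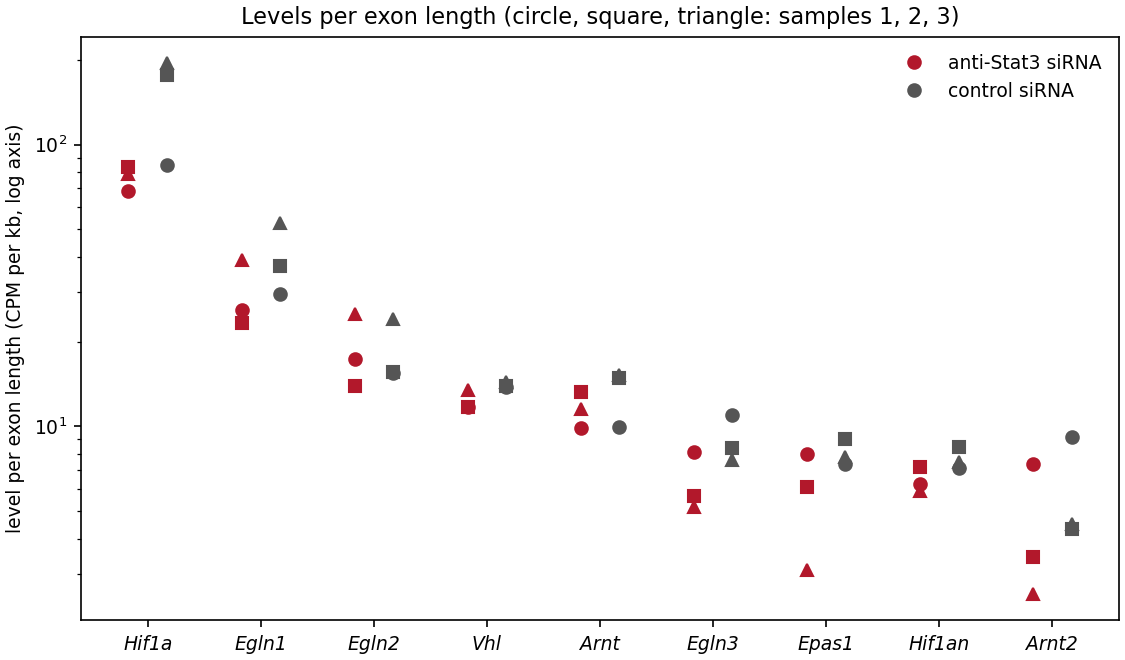
Level per exon length (CPM per kb, log axis) of the 9 tested genes in 3 anti-Stat3 siRNA samples (red, left) and 3 control siRNA samples (grey, right), ordered by control mean; circles, squares and triangles are samples 1, 2 and 3. Hif1a stands above all other members in both groups, and Arnt2 is highest in sample 1 of each group.

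Listed genes that HIF is known to induce were lower in most cases. The list, like those below, was chosen with earlier results of these data known, so its shares are descriptive. Of 55 listed, 54 were tested (all but Epo, which encodes erythropoietin), and 42 of them, or 77.8%, were lower in all 3 pairs, where 16.4% of all tested genes were; 1 was higher in all. In blocked DESeq2 14 of the 54 fell and 0 rose, beside 0.783% of all genes called lower. Blocked fits made more false calls on simulated data than the threshold allows, so some of these calls may be false. In edgeR 0 passed, with the group alone or with the block. The list's median log2 change was -0.44 in unblocked edgeR, with pair medians of -0.27, -0.47 and -0.43, beside -0.31, -1.08 and -1.31 for Hif1a itself. The count called in DESeq2 was 13 without pair 1, 1 without pair 2 and 3 without pair 3. Angptl4, a secreted inhibitor of lipoprotein lipase, had 64.8, 36.3 and 13.7 CPM in anti-Stat3 samples 1 to 3, against 121, 80.0 and 46.1 CPM in control samples 1 to 3. In blocked DESeq2 it fell by 1.25 ± 0.19 (SE) on the log2 scale (adjusted p = 2.0e-07). Ak4, a mitochondrial adenylate kinase, fell by 0.89 ± 0.18, Pfkfb3, which makes an activator of glycolysis, by 0.78 ± 0.16, and Gbe1, the glycogen branching enzyme, by 0.77 ± 0.17 (SE; DESeq2 adjusted p = 2.3e-04, 3.8e-04 and 8.3e-04). Ak4 had 33.6, 27.4 and 40.1 CPM in the anti-Stat3 samples, against 51.8, 64.0 and 70.9 CPM in the controls, and its groups did not overlap.

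The partners of Vhl and the other regulators of the alpha subunit had medians near 0. The 5 genes that act with Vhl in its ubiquitin ligase or bind it had a median of 0.05 in unblocked edgeR, and 0 were lower in all 3 pairs. Cul2, the ligase's scaffold, had pair changes of -0.10, 0.23 and 0.07, and Rbx1, its ring subunit, 0.04, -0.04 and 0.33. Tceb1, which encodes elongin C, changed by -0.20, 0.10 and -0.10, and Vbp1, a Vhl-binding prefoldin subunit, by -0.09, 0.14 and 0.14. Of 20 other regulators of the alpha subunit 19 were tested, with a median of 0.0066 in unblocked edgeR. In unblocked edgeR, blocked edgeR and blocked DESeq2 0 of them were called. Of the 19, 6 (31.6%) were lower in all 3 pairs, against 16.4% of all tested genes. Only 1 was higher in all 3 pairs, against 17.4% of all tested genes. The coactivators Ep300 and Crebbp moved alike, by -0.09, -0.01 and -0.79 and by -0.04, -0.0012 and -0.78, so that their change was seen in pair 3 alone. Ube2o and Wsb1, of which Wsb1 is known to promote the degradation of Vhl, were lower in all 3 pairs (means of -0.28 and -0.26) and did not pass (DESeq2 adjusted p = 0.576 and 0.572).

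Among 14 other factors of the bHLH-PAS family, to which the HIF subunits belong, 11 were tested, with a median of -0.15 in unblocked edgeR. Blocked DESeq2 called 1, Ahr, the dioxin receptor, which pairs with Arnt. Ahr had 6.14, 13.5 and 3.91 CPM in anti-Stat3 samples 1 to 3, against 13.5, 26.8 and 9.29 CPM in control samples 1 to 3. All pairs were lower by a similar amount (-1.12, -0.98 and -1.22), while the groups overlapped. Ahr fell by 1.11 ± 0.22 (log2, SE) in blocked DESeq2 (adjusted p = 2.3e-04) and did not pass in blocked edgeR (adjusted p = 0.0764). The limit on false calls in blocked fits applies to this DESeq2 call too. Npas2, a clock factor, changed by 0.91, -0.82 and -1.79 in pairs 1 to 3. Clock and Arntl2, which also act in the circadian clock, had mean changes of -0.28 ± 0.37 and -0.37 ± 0.28 (SD, n = 3 pairs). None of these 3 passed in blocked DESeq2 (adjusted p = 0.908, 0.880 and 0.943).

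**Figure D4:**
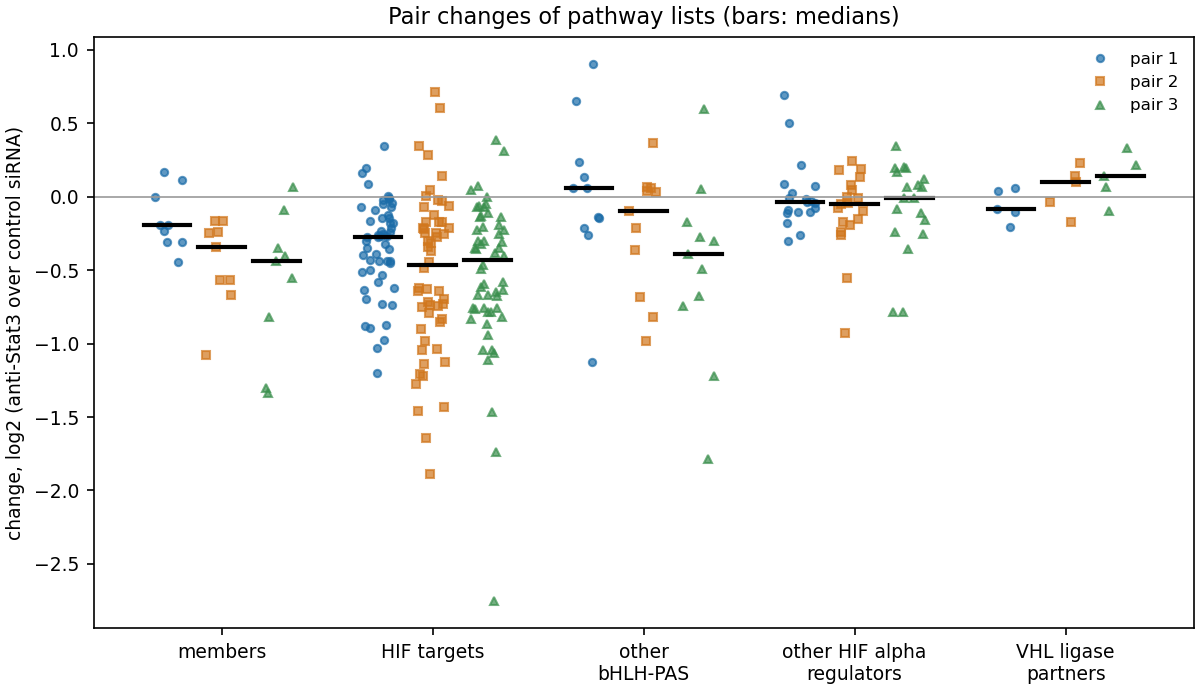
Change in each pair (log2 of anti-Stat3 over control siRNA) of the 9 tested members and of 4 lists of pathway genes; points are genes and black bars medians. The median of the 54 HIF targets is -0.27, -0.47 and -0.43 in pairs 1 to 3, while that of the 5 Vhl ligase partners is -0.09, 0.10 and 0.14.

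The genes most like each of the 3 most variable tested members were found from the root mean square difference of centred log2 CPM over the 6 samples, among 11912 genes. Hif1a was nearest to Sbno2, a transcriptional coregulator (0.107), Osmr, a receptor subunit for oncostatin M (0.161), and Vcan, a large matrix proteoglycan (0.163). Arnt2 was nearest to Abcc1, an exporter of drugs and glutathione conjugates (0.0882), 9130008F23Rik (0.124) and Plcxd2 (0.126). Epas1 was nearest to 4833418N02Rik (0.123), Palm2 (0.134) and the cation channel gene Trpc1 (0.137). For scale, the members' own SD over the samples was 0.65 for Hif1a, 0.68 for Arnt2 and 0.56 for Epas1 on the log2 scale. Sbno2 had pair changes of -0.20, -1.20 and -1.09 and Osmr of -0.58, -1.02 and -0.96. Both were chosen for their likeness to Hif1a over these same samples, so the wider gap in pairs 2 and 3 follows from that choice.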

How the data were processed

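Poly(A) RNA sequencing was done on 6 samples, per the labels' protocols from TRIzol RNA with a RIN of at least 9 and a TruSeq kit. Per the submitters' processing notes, TopHat2 2.0.10, HTSeq and mouse build mm9 were used. The authors deposited raw counts per gene symbol, not normalised. No source used here gives the strand setting, so overlapping genes and paralogs are uncertain. Columns were matched to samples by the group and number in their names.

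The main test was edgeR's quasi-likelihood test (edgeR 4.0.16, R 4.3.3) on the 13284 genes left by filterByExpr (minimum count 10, total 15), scaled by TMM, with the siRNA as its single term and Benjamini-Hochberg adjustment at 0.05. A prior count of 2 went into log2 CPM. DESeq2 1.42.0, limma-voom (limma 3.58.1), other scalings, no filter, a batch term for pair 3 (whose descriptions follow another naming scheme), left-out samples and the replicate number as a block were alternatives. The titles number the replicates alike in both groups, and samples of a number deviated together from their group means (r = 0.83, 0.82 and 0.83 across genes) but others did not (r at most -0.16), so the numbers were taken to pair the samples. With 3 samples per group no exact permutation test can give a two-sided p under 0.1. The fits were tested on simulated data that held pair differences: in each of the 4 fits tried the median estimates lay near the sizes put in, the fit without the block called few of the changed genes, and in each blocked fit the share of false calls was above the threshold of 0.05.

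Exon lengths and overlaps came from GENCODE vM21 (GRCm38), by symbol. The named genes were the members, Stat3, up to 4 genes per pathway list with the smallest p in blocked edgeR, all called genes of a list where these were 6 or fewer, and the nearest genes in pattern, of those averaging 1 or more in log2 CPM. The single markers named were picked with their values known. Members and lists were chosen with earlier results of these data known. A summed level of 9 pericyte markers was 204, 159 and 133 CPM in anti-Stat3 samples, against 163, 208 and 154 CPM in controls. This sum mixes genes that moved in opposite directions, and the median change of the 6 tested was 0.26, -0.11 and 0.0037 in pairs 1 to 3. Mcam (0.32, 0.71 and 0.77) and Cspg4 (0.04, 0.65 and 0.48) were higher in all 3 pairs, and Mcam passed in blocked DESeq2 (adjusted p = 0.0258). Ndufa4l2 was lower in all 3 pairs (-1.16, -3.70 and -0.99). Neither Cspg4 (adjusted p = 0.649) nor Ndufa4l2 (adjusted p = 0.282) passed in blocked DESeq2.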

Additional observations from a re-analysis of the deposited data

How the results depend on the processing

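The count of genes called was 0 in unblocked edgeR, 8 in blocked edgeR and in blocked limma-voom, 17 in unblocked DESeq2 and 220 in blocked DESeq2 (replicate block). Without control sample 1 unblocked edgeR called 40, and without each other sample 0. Without pairs 1, 2 and 3, blocked edgeR called 703, 3 and 0 genes and blocked DESeq2 432, 14 and 20. Members called were 0 in unblocked edgeR, 1 (Hif1a) in blocked DESeq2, and 2 (Hif1a and Epas1) without pair 1 in blocked edgeR and in blocked DESeq2. HIF targets called were 14 in blocked DESeq2, with 13, 1 and 3 without pairs 1, 2 and 3, and in blocked edgeR 0, with 16, 0 and 0; these counts were added after the data were seen. Hif1a passed at -0.90 in blocked DESeq2 and at -1.19 without pair 1 in both blocked fits, and ranged from -1.27 to -0.69 with samples or pairs left out. Epas1 passed at -0.94 without pair 1 in both and ranged from -0.94 to -0.20. Direction turned for Arnt2 without control sample 1 (0.0041, range -1.005 to 0.0041). It turned for Egln2 in unblocked edgeR with samples left out (range -0.24 to 0.28) and in blocked fits, at -0.052 (edgeR) and -0.049 (DESeq2) without pair 1 and -8.8e-05 without pair 3 in edgeR. Arnt, Egln1, Egln3, Vhl and Hif1an kept a negative change and no call in all 20 alternatives. RLE scaling, library totals, no filter and the batch term changed no call or direction of a member, and the median change of all genes was -0.0028 with TMM, -0.0014 with RLE and 0.0226 with library totals. The cause was not tested.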
